A study of Mus musculus with 50 samples.

Results

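Milk-gene-high and milk-gene-low tumours are the 15 highest and the 15 lowest of 47 mammary tumours ranked by the RNA of 5 milk genes, so 30 of the 50 tumours in the series are compared. The score was the mean of Csn2, Csn1s1, Csn3, Lalba and Btn1a1, each standardised over the 47 tumours. The 17 tumours between the groups are called the middle tumours, and the tumours mid60, mid79 and mid100 were set aside by the rule. The groups were thus chosen by measured values of those 5 genes, whose levels are given as a description, and the tests bear on the other genes of the array.

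All 50 tumours arose spontaneously in female mice carrying MMTV-Erbb2, a transgene in which the mouse mammary tumour virus promoter drives the receptor tyrosine kinase ErbB2 in mammary epithelium. They were bred in a backcross, written F1Bx, in which C57BL/6J x FVB/NJ hybrids were crossed to FVB/NJ mice with MMTV-Erbb2, so each inherited its own mixture of strain segments, and both groups share the transgene and this background. Each biopsy was taken before drug treatment and measured on 1 Affymetrix array. The series title names doxorubicin and the sample protocols docetaxel as the drug. The labels give no age, batch, control tissue or response. They do not say whether any of the tumours came from the same mouse, so the p-values measure the spread between these samples, and the number of arrays limits the precision. Levels are log2 values of the RMA summary of each probe set, on which a difference of 1 is 2-fold, and values ran from 2.53 to 13.65.

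In the lactating mammary gland, prolactin acts through its receptor and the kinase JAK2 on the transcription factor STAT5, which drives casein genes in alveolar luminal cells. The caseins are the main milk proteins, and most of their genes lie side by side in a cluster on mouse chromosome 5. Alpha-lactalbumin, the product of Lalba, forms lactose synthase together with the galactosyltransferase B4galt1. Butyrophilin, the product of Btn1a1, sits in the membrane that wraps fat droplets as they leave the cell.

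The promoters of the genes that set the score are shown because STAT5 binds DNA of the form TTCNNNGAA. The RefSeq promoter table, on GRCm38.p6, held 3 of the 5 genes. Each sequence is the 250 bases before the annotated start, read 5′ to 3′ on the gene's strand, and capitals mark the fixed letters of a match. Csn2 is on the minus strand (chr5:87699426-87699675), Csn1s1 on the plus strand (chr5:87665958-87666207) and Lalba on the minus strand (chr15:98482684-98482933).
Csn2: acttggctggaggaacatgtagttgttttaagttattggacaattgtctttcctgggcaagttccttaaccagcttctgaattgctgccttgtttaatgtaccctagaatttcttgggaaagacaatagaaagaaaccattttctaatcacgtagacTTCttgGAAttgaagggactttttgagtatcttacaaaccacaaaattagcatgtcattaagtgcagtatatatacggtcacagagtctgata
Csn1s1: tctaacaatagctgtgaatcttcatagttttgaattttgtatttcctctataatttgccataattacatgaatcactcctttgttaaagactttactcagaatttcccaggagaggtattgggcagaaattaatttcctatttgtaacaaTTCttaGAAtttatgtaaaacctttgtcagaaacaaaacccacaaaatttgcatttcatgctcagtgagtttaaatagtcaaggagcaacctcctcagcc
Lalba: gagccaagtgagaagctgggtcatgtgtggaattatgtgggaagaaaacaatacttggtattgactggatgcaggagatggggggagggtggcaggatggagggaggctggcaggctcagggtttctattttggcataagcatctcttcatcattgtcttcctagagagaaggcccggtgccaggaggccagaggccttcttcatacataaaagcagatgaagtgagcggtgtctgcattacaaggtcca
The Csn2 promoter held 1 match, TTCTTGGAA, whose first base lies 93 bases before the start. The Csn1s1 promoter held 1 match, TTCTTAGAA, 100 bases before the start, and these letters were not in the Lalba window. The motif reads the same form on both strands, and 2306 of 32851 promoters of this length (7.02%) held at least 1 match. The share was 6.26% of 17296 promoters of the tested genes, 6.15% of 130 promoters of genes higher in the high tumours and 7.38% of 149 promoters of genes lower in them. A match describes the letters and does not show binding.

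Csn2, beta-casein, had a lowest, median and highest level of 12.40, 12.92 and 13.48 in the high tumours, 10.07, 12.77 and 13.11 in the middle tumours and 4.82, 10.54 and 12.45 in the low tumours. Csn1s1, alpha-S1-casein, was at 10.67, 12.53 and 12.94 in the high tumours and 4.52, 10.13 and 11.34 in the low tumours. Csn3, kappa-casein, was at 12.69, 12.84 and 13.13 in the high tumours and still at 12.02, 12.67 and 12.95 in the low tumours. Low tumours are therefore low in relation to the others, and none of them lacked milk gene RNA as a whole. Lalba was at 11.10, 12.93 and 13.21 in the high tumours and 8.79, 11.96 and 12.97 in the low tumours. Btn1a1 was at 8.35, 10.54 and 12 in the high tumours and 5.58, 6.85 and 8.55 in the low tumours. The groups overlapped in each of the 5 genes.

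**Figure D1:**
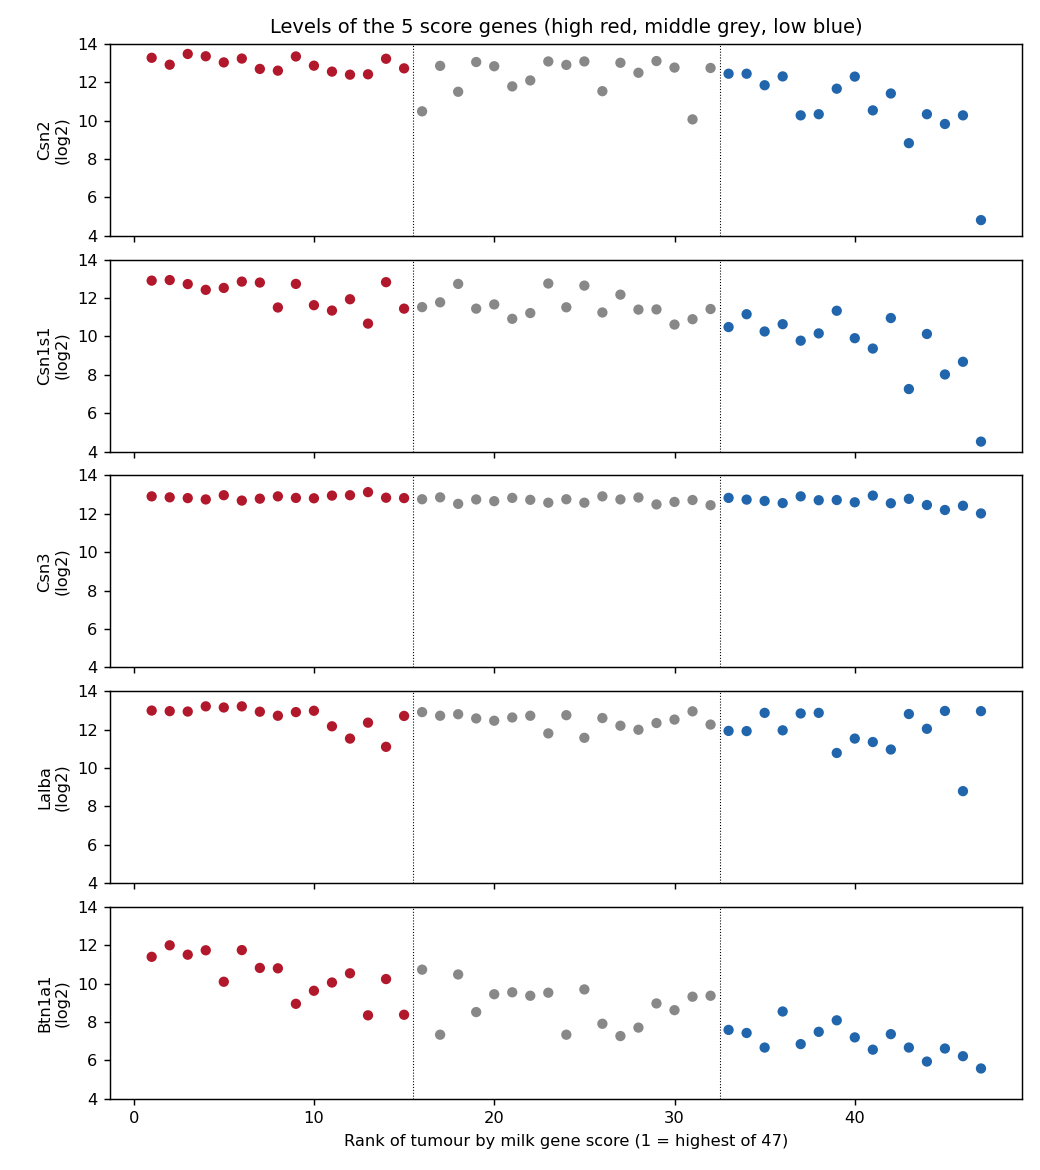
Log2 level of each of the 5 score genes (y axes, 1 panel per gene) against the rank of the 47 tumours by the milk gene score (x axis); each point is 1 tumour, high tumours in red, middle in grey and low in blue, and dotted lines mark the group limits. Csn2 and Csn1s1 drop steeply at the lowest ranks, Csn3 stays at 12.02 or above throughout, and several low tumours keep Lalba levels near those of the high tumours.

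The 5 genes did not vary as 1 block. Over the 47 tumours, whose genes were read on the same arrays, Csn2 and Csn1s1 had an r of 0.88 and Csn1s1 and Btn1a1 of 0.75, whereas Csn2 and Lalba had an r of 0.04. The lowest-scoring tumour, mid99, had Csn2 at 4.82 and Csn1s1 at 4.52 but Lalba at 12.96. The next lowest, mid111, had Lalba at 8.79, the lowest of the 47, with Csn2 at 10.28. The score ran from 1.03 in mid37 to 0.27 in mid85 in the high group, and mid38, just outside, had 0.26. In the low group it ran from -0.16 in mid16 to -2.65 in mid99, and mid145, just outside, had -0.09. On the same scale mid100 had 0.12, mid79 had -2.38 and mid60 had -2.95.

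Across the genes outside the score, 284 of 18040 (1.57%) differed between high and low tumours at an adjusted p under 0.05 (limma, Benjamini-Hochberg over all tested genes). Of these, 140 (0.776%) were higher and 144 (0.798%) lower in the high tumours, and 1316 and 1727 had an unadjusted p under 0.05. The higher genes moved further, with a median log2 difference of 0.50 against -0.35 for the lower ones. At least 2-fold differences were found for 21 of the 140 higher genes and for 2 of the 144 lower genes. With each array centred on its median the counts were 191 higher and 58 lower, and after a further quantile normalization 144 and 95. Leaving out 1 tumour at a time gave 64 (without mid111) to 217 (without mid135) higher and 41 (without mid111) to 246 (without mid9) lower genes. All 140 and all 144 genes kept their direction in these fits, which reuse the tumours that selected the genes and so are little test of direction.

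Several genes of milk proteins outside the score were higher in the high tumours, led by the milk enzyme gene Lao1 and the casein gene Csn1s2a. Of 21 genes on the milk protein list 18 were tested, and 8 of them were higher and 0 lower, where 0.776% of all tested genes were higher. The median difference of the 18 genes was 0.78, against -0.006 over all tested genes, and the list's mean level was 7.69, 8.48 and 9.25 (lowest, median, highest) in the high tumours and 7.10, 7.46 and 8.0 in the low tumours. The 8 genes were Lao1, Csn1s2a, Csn1s2b, Pigr, Muc15, Nucb2, Wap and Wfdc18.

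Lao1 codes for the L-amino acid oxidase of mouse milk, an enzyme that makes hydrogen peroxide. Its level was 5.62, 8.81 and 11.28 in the high tumours, 6.26 at the median of the middle tumours and 4.34, 5.19 and 6.45 in the low tumours. The level in 12 of the 15 high tumours exceeded that of every low tumour. Lao1 had the largest difference of all tested genes, 3.38 ± 0.48 log2 (SE), or 10.4-fold (limma adjusted p = 0.00033).

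Csn1s2a, an alpha-S2-type casein, lies next to Csn2 in the casein cluster. Its level was 11.31, 12.28 and 13.21 in the high tumours, 11.72 at the median of the middle tumours and 4.90, 9.43 and 11.31 in the low tumours. The groups touched at 11.31, and 14 of 15 high tumours lay above all low tumours. The difference was 2.84 ± 0.44 log2 (SE), or 7.15-fold (limma adjusted p = 0.00174). Csn1s2b, the neighbouring casein gene, was dim in most tumours, at 4.34, 5.84 and 8.30 in the high and 3.94, 4.36 and 5.03 in the low tumours, and 1.62 higher (adjusted p = 0.0139). Caseins are a related gene family, and cross-reading between their probe sets was not tested.

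The remaining tested genes of the same stretch of chromosome 5 did not pass the test, and its other measured genes outside the score were too dim to be tested. Prr27 and Gm7337, which lie between Csn1s2b and Csn3 in gene order, had differences of 0.08 (adjusted p = 0.691) and 0.05 (adjusted p = 0.601). Odam, a secreted protein of teeth and glands in the same interval, had 1.02 (adjusted p = 0.226), with an SD of 1.55 in the high tumours. On the outer sides, Sult1d1 and Sult1e1, sulfotransferase genes before Csn1s1, had 0.001 and -0.002, and Prol1, a proline-rich secreted protein gene after Csn3, had 1.79 with an adjusted p of 0.128.

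Wap, whey acidic protein, was at 5.26, 5.63 and 6.59 in the high tumours and 4.87, 5.19 and 5.38 in the low tumours. Its signal was near the bottom of the scale in both groups, and 10 of 15 high tumours lay above all low tumours. The difference was 0.58 ± 0.12 log2 (SE; limma adjusted p = 0.0139). Wfdc18, a relative of Wap, was at 10.56, 10.74 and 11.28 in the high and 9.60, 10.24 and 11.19 in the low tumours, 0.43 higher (adjusted p = 0.0378), a call that held in 17 of 30 fits with 1 tumour left out.

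Pigr carries immunoglobulin A across the epithelium into milk. Its level was 8.68, 9.73 and 10.63 in the high and 7.66, 8.38 and 10.02 in the low tumours, 1.17 higher (adjusted p = 0.0134). The middle tumours, with a mean of 8.42, were close to the low tumours, with a mean of 8.43. Muc15, a mucin of the milk fat globule membrane, was at 9.74, 10.83 and 11.71 in the high and 7.90, 9.61 and 10.91 in the low tumours, 1.16 higher (adjusted p = 0.0139). Every high tumour lay above the median of the low tumours for both genes. Nucb2, nucleobindin, was 0.77 higher (adjusted p = 0.0232). Other milk proteins did not pass: Mfge8, lactadherin, had 0.91 (adjusted p = 0.199), Ltf, lactoferrin, 0.94 (adjusted p = 0.191), Muc1 0.78 (adjusted p = 0.208) and Olah, the thioesterase that releases medium-chain fatty acids, 1.03 (adjusted p = 0.149).

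**Figure D2:**
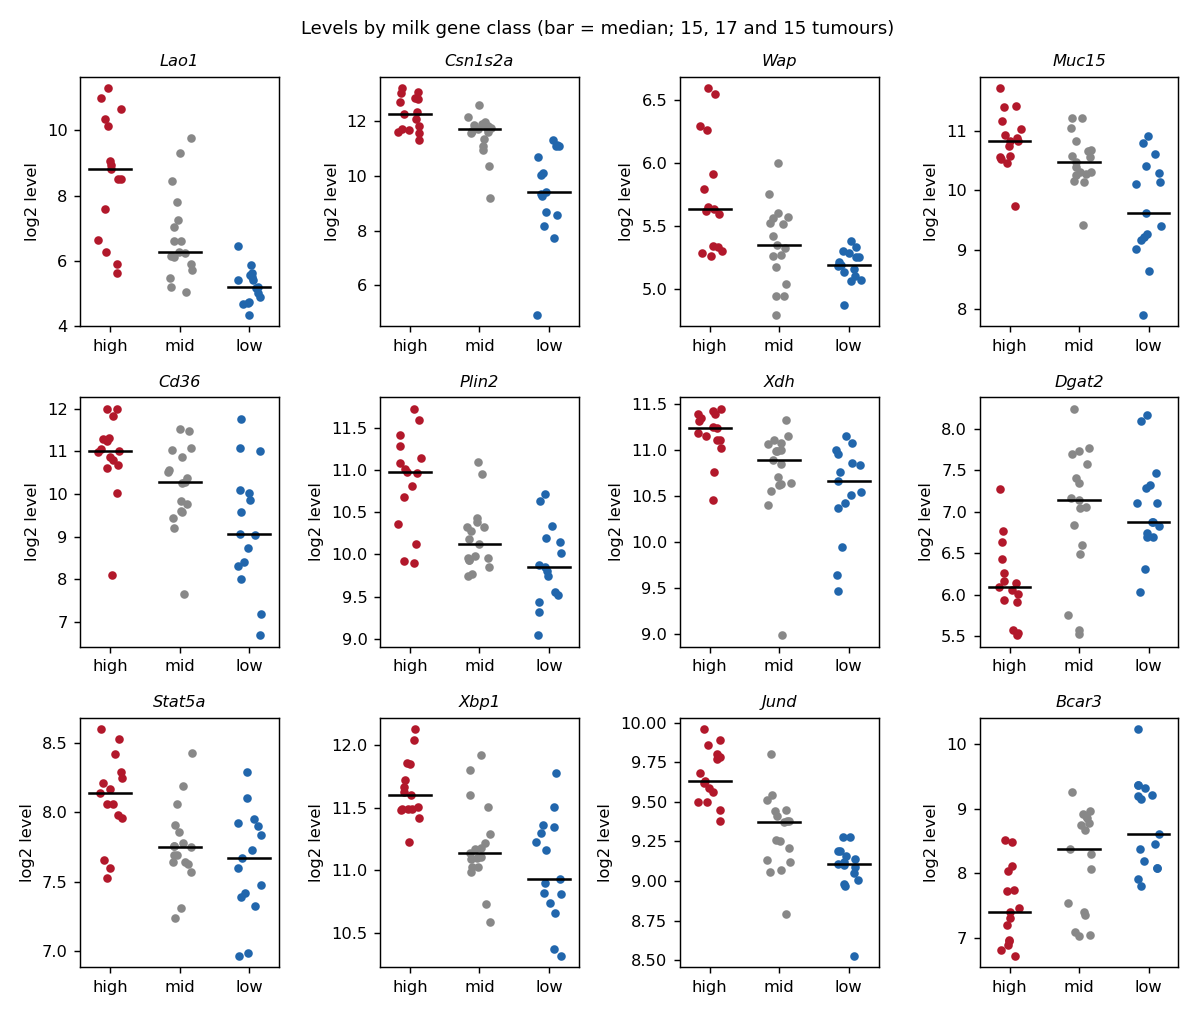
Log2 level of 12 genes (y axes, 1 panel per gene) in the 15 high, 17 middle and 15 low tumours; each point is 1 tumour and the bar is the median. The middle tumours lie between the groups for Lao1, Csn1s2a and Plin2, and Jund separates high from low tumours. Bcar3 runs the other way, and Dgat2 is lowest in the high tumours but has a higher median in the middle than in the low tumours.

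Genes for making and packing milk fat divided in direction. Of 29 genes on the list 28 were tested, 7 were higher and 1 was lower, where 0.776% and 0.798% of all tested genes were. The median difference of the list was 0.18. Of the genes for the droplet coat, Plin2, which covers fat droplets, was at 9.90, 10.98 and 11.73 in the high and 9.04, 9.85 and 10.72 in the low tumours. It was 0.99 ± 0.18 log2 (SE) higher (limma adjusted p = 0.00985), with 10 of 15 high tumours above all low tumours. Xdh, xanthine oxidoreductase, which joins butyrophilin at the droplet surface, was at 10.46, 11.24 and 11.45 in the high and 9.47, 10.67 and 11.15 in the low tumours, 0.62 higher (adjusted p = 0.0246).

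Genes that take up or modify fatty acids were divided, with some called and others not. Cd36, a fatty acid carrier found on milk fat globules, was at 8.11, 11 and 12 in the high and 6.69, 9.06 and 11.75 in the low tumours, so the groups overlapped over most of their range. It was 1.66 higher (adjusted p = 0.0384), a call that held in 15 of 30 fits with 1 tumour left out. Scd1, the stearoyl-CoA desaturase, was 0.93 higher (adjusted p = 0.0148) and Acsl4, an acyl-CoA synthetase, 0.42 higher (adjusted p = 0.00272). Thrsp, the lipogenic protein Spot14, was 1.38 higher (adjusted p = 0.0323), and Me1, the malic enzyme that supplies NADPH, 0.47 higher (adjusted p = 0.0378). These last calls held in 20 and 17 of the 30 fits with 1 tumour left out. Others of this kind did not pass. Elovl5 and Elovl6, fatty acid elongases, had -0.36 (adjusted p = 0.254) and 0.006 (adjusted p = 0.991), and Fads1 and Fads2, desaturases, 0.32 (adjusted p = 0.592) and -0.24 (adjusted p = 0.709). Lpl, lipoprotein lipase, had 0.12 (adjusted p = 0.817), Vldlr, a lipoprotein receptor, -0.30 (adjusted p = 0.18) and Fabp3, a fatty acid binding protein, 0.15 (adjusted p = 0.476).

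Core fatty acid synthesis did not pass. Fasn, fatty acid synthase, had a difference of 0.28 (adjusted p = 0.27), Acaca, acetyl-CoA carboxylase, 0.16 (adjusted p = 0.412) and Acly, ATP citrate lyase, 0.57 (adjusted p = 0.0605). Srebf1, the regulator of lipid synthesis genes, had 0.52 (adjusted p = 0.173). Dgat2, which adds the last fatty acid to triglyceride, was lower, at 5.51, 6.09 and 7.27 in the high and 6.03, 6.87 and 8.16 in the low tumours (difference -0.89 ± 0.18 log2 SE, limma adjusted p = 0.0139). The median of the middle tumours, 7.14, lay above that of the low tumours. Dgat1, the other enzyme of that step, had -0.16 (adjusted p = 0.361), and Gpat4, which starts triglyceride synthesis, 0.42 (adjusted p = 0.0615).

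Of 27 genes for lactose synthesis and transport into milk 23 were tested, and 2 were higher and 0 lower, beside 0.776% and 0.798% of all tested genes. B4galt1, the enzyme that pairs with alpha-lactalbumin, was at 10.17, 11.15 and 11.81 in the high and 9.88, 10.43 and 11.10 in the low tumours, 0.59 ± 0.14 log2 (SE) higher (limma adjusted p = 0.028). Slc28a3, a nucleoside transporter, was at 8.90, 10.50 and 11.45 against 8.61, 9.53 and 10.39, 0.95 higher (adjusted p = 0.0239). Differences were positive in 21 of the 23 genes with a median of 0.18. Slc34a2, a phosphate transporter of secretory epithelium, had 1.11 (adjusted p = 0.0736), Slc2a1, the glucose transporter, 0.52 (adjusted p = 0.148) and Slc5a1, a sodium-coupled glucose transporter, 0.75 (adjusted p = 0.216).

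None of the 24 tested genes of the prolactin receptor, JAK2 and STAT5 list passed the test in either direction, and 6 positive and 2 negative differences had an unadjusted p under 0.05. Over all 18040 tested genes 1.57% passed, so none of 24 is close to that share. Unadjusted p-values under 0.05 went with 1316 positive and 1727 negative differences among the 18040. The prolactin receptor gene itself was not named by a one-gene probe set and was not analysed here. Stat5a came nearest, at 7.53, 8.14 and 8.60 in the high and 6.97, 7.67 and 8.29 in the low tumours, with a difference of 0.46 ± 0.12 log2 (SE; limma adjusted p = 0.0511), and 12 of 15 high tumours lay above the low median. Stat5b had 0.19 (adjusted p = 0.298) and Jak2 -0.23 (adjusted p = 0.108). Of the STAT5 target and feedback genes, Socs2 had 0.36 (adjusted p = 0.12) and Cish 0.26 (adjusted p = 0.212). Elf5, the alveolar transcription factor, had 0.29 (adjusted p = 0.241), and Cebpb and Nfib, further regulators of milk genes, had 0.21 (adjusted p = 0.131) and 0.25 (adjusted p = 0.141). RNA levels do not report the phosphorylation by which STAT5 is activated.

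The probe set of the Erbb2 gene did not pass the test. Whether it reads the transgene, the mouse's own gene or both was not tested. Erbb2 was at 11.10, 11.74 and 11.86 in the high and 11.16, 11.68 and 11.94 in the low tumours, with a difference of -0.003 ± 0.077 log2 (SE; limma adjusted p = 0.99). Of 16 tested ERBB receptors, ligands and partners 0 passed the test and 3 had an unadjusted p under 0.05, beside 284 and 3043 of all 18040 tested genes. Erbb4, a receptor that acts with STAT5 in lactation, had 0.33 ± 0.40 log2 (SE; adjusted p = 0.71).

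The secretory route was represented by few of the listed genes. Of 25 tested genes of the secretory pathway and folding in the endoplasmic reticulum 1 was higher, Xbp1, beside 0.776% of all tested genes. In this list 20 differences were positive, with a median of 0.15. Xbp1, a transcription factor of secretory cells, was at 11.23, 11.60 and 12.13 in the high and 10.32, 10.93 and 11.78 in the low tumours, 0.62 ± 0.12 log2 (SE) higher (limma adjusted p = 0.0122). Among genes outside the list, and chosen after their values were seen, several with roles in the endoplasmic reticulum were called. Genes with such roles were not counted over the whole array. Fkbp11, a prolyl isomerase, was 0.72 higher (adjusted p = 0.0145), Ssr4, a part of the translocon, 0.44 higher (adjusted p = 0.0139), Spcs2, a part of the signal peptidase, 0.37 higher (adjusted p = 0.0344), and Creb3 and Erp44, a transcription factor and a chaperone, 0.48 (adjusted p = 0.0148) and 0.40 (adjusted p = 0.0292) higher. The chaperones Hspa5 and Hsp90b1 had 0.15 (adjusted p = 0.553) and -0.02 (adjusted p = 0.954).

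Jund, a subunit of the AP-1 transcription factor, was the 1 gene of 18040 (0.00554%) whose groups did not overlap. Jund was picked after its values were seen. It was at 9.38, 9.63 and 9.96 in the high tumours, 9.37 at the median of the middle tumours and 8.53, 9.11 and 9.28 in the low tumours. The difference was small in size, 0.58 ± 0.066 log2 (SE) or 1.5-fold, with the lowest adjusted p of all tested genes (limma, 8.71e-06). Ogfrl1, a relative of an opioid growth factor receptor gene, followed at 9.53, 10.57 and 11.23 in the high and 7.29, 8.46 and 10.34 in the low tumours, 1.82 ± 0.24 log2 (SE) higher (limma adjusted p = 0.000122). In 12 of 15 low tumours Ogfrl1 lay below every high tumour.

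Among the 15 largest positive differences were further genes of the secretory mammary gland and of other functions. Pinc, a noncoding RNA induced in the mammary gland in pregnancy, was at 7.76, 9.31 and 11.60 in the high and 5.28, 7.46 and 9.39 in the low tumours, 2.22 higher (adjusted p = 0.00849). Gldc, of the glycine cleavage system, and Spink5, a protease inhibitor, were each 1.59 higher (adjusted p = 0.0122 and 0.00196), and 11 of 15 high tumours lay above all low tumours for either gene. Npy, neuropeptide Y, was 1.87 higher (adjusted p = 0.0445) and C4b, a complement component, 1.4 higher (adjusted p = 0.0383). Those 2 calls held in 13 and 16 of the 30 fits with 1 tumour left out. Vdr, the vitamin D receptor, was 0.71 higher (adjusted p = 0.048) and Cyp24a1, the enzyme that degrades vitamin D and is a target of that receptor, 0.64 higher (adjusted p = 0.0273). The 2 genes were picked after their values were seen, and the Vdr call held in 7 of the 30 fits.

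The genes lower in high tumours had smaller differences. Bcar3, an adaptor linked to antioestrogen resistance, was at 6.73, 7.40 and 8.52 in the high and 7.80, 8.60 and 10.23 in the low tumours. It had the largest drop among called genes, -1.27 ± 0.23 log2 (SE), or 2.40-fold lower (limma adjusted p = 0.00716), and all 15 high tumours lay below the low median. Loxl3, a collagen cross-linking enzyme, was at 6.70, 7.93 and 9.77 in the high and 7.62, 9.57 and 10.29 in the low tumours, with a difference of -1.19 (adjusted p = 0.0256). Sytl2, which tethers vesicles, had -0.86 (adjusted p = 0.0139) and Adamts3, which processes procollagen, -0.87 (adjusted p = 0.049), the latter call holding in 9 of 30 fits with 1 tumour left out. The medians of the middle tumours for Bcar3 and Loxl3, 8.37 and 9.43, lay between those of the groups. For Sytl2 and Adamts3 they were 6.99 and 8.84, above the low medians of 6.62 and 8.57.

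Several transcription factors were among them. Bcl11a had a difference of -0.79 (adjusted p = 0.028), Foxp1 of -0.53 (adjusted p = 0.00272), Myb of -0.61 (adjusted p = 0.0246) and Sox8 of -0.63 (adjusted p = 0.0395), the Sox8 call holding in 11 of 30 fits with 1 tumour left out. Foxp1, Bcl11a and Cxcr4, the chemokine receptor with -0.63 (adjusted p = 0.0148), lay below the low median in 15 of 15 high tumours. Foxp1 and Cxcr4 were picked after their values were seen. Myb was the 1 lower gene of 15 tested hormone-sensing luminal genes, in which Xbp1 was the 1 higher gene. Of all tested genes 0.798% were lower and 0.776% higher. Esr1, the oestrogen receptor, had 0.15 (adjusted p = 0.661).

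**Figure D3:**
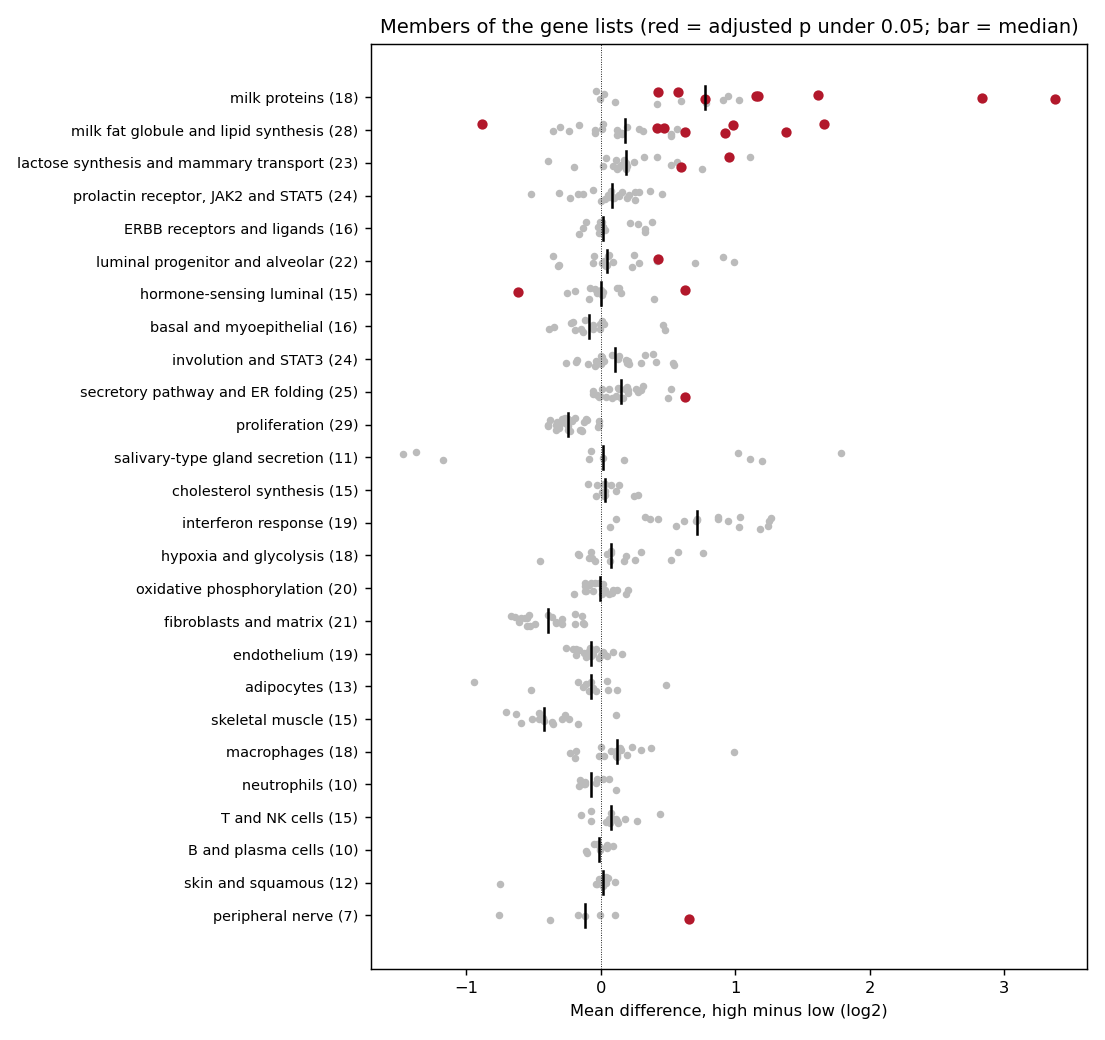
Mean log2 difference, high minus low tumours (x axis), of every tested member of 26 gene lists (1 line per list, number of tested genes in brackets); each point is a gene, red points have an adjusted p under 0.05 and the black bar is the list's median. The milk protein list has the most called genes, 8 of 18, while the interferon genes lie right of 0 and the fibroblast and proliferation genes left of 0 with 0 called.

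General markers of luminal epithelium did not pass the test. Epcam was at a median of 11.51 in both, with a difference of 0.02 (limma adjusted p = 0.905), and the keratins Krt8 and Krt18 had 0.04 (adjusted p = 0.873) and 0.03 (adjusted p = 0.919). Of 22 luminal progenitor and alveolar genes 1 was higher, beside 0.776% of all tested genes. It was Wfdc18, which also stands on the milk protein list. Of 16 basal and myoepithelial genes and 24 involution and STAT3 genes 0 passed the test, beside 1.57% of all tested genes. In these bulk biopsies fewer cells of a type and less RNA per cell cannot be told apart.

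Of the markers of other cells only Cnp passed the test, and the members of some lists leaned in 1 direction. All 21 fibroblast and matrix genes had a negative difference, with a median of -0.40, 0 called and 0 with an unadjusted p under 0.05. Their mean level was 6.39, 7.60 and 8.85 in the high and 6.61, 7.73 and 10.33 in the low tumours. Of 15 skeletal muscle genes 14 were negative with a median of -0.42, and their mean level reached 9.85 in mid71, a low tumour, while the low median was 5.12. Medians were -0.07 for 13 adipocyte and 19 endothelial genes, 0.12 for 18 macrophage genes and 0.08 for 15 T and NK cell genes, with 0 called in each. Over all tested genes 1.57% were called. Of 7 peripheral nerve genes 1 was higher, Cnp, a myelin enzyme gene, by 0.66 (adjusted p = 0.0139), beside 0.776% of all tested genes. The other way, 5 of the 7 nerve genes were negative and 2 positive, from -0.75 to 0.66 with a median of -0.12. The myelin genes Mbp and Mag had 0.11 (adjusted p = 0.43) and -0.007 (adjusted p = 0.96).

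With the scores of the fibroblast, endothelial, adipocyte and macrophage lists (means of standardised genes) as covariates, 2 genes were higher and 0 lower, and 1458 had an unadjusted p under 0.05. The 2 were Jund, at 0.52 (adjusted p = 0.00558), and Ogfrl1, at 1.41 (adjusted p = 0.00444). All 140 higher and 144 lower genes kept their direction in that fit, which used the same 30 tumours that selected them. Lao1 had 3.06 (adjusted p = 0.0879) and Csn1s2a 2.86 (adjusted p = 0.0659) there, close to their differences without covariates, while Cd36 had 1.16 (adjusted p = 0.555). None of the 18 milk protein genes passed the test in that fit.

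Interferon-stimulated genes and cell cycle genes leaned in opposite directions. All 19 tested interferon response genes had positive differences, with a median of 0.72 and 15 unadjusted p-values under 0.05, but 0 were called and the smallest adjusted p was 0.0727 (Rsad2, an antiviral enzyme, at 1.03). Their mean level was 6.30, 7.64 and 8.68 in the high and 5.84, 6.51 and 8.5 in the low tumours, so the groups overlapped over most of the range. Outside the list, Iigp1, an interferon-inducible GTPase, was at 8.48, 9.78 and 11.31 in the high and 6.15, 7.84 and 10.91 in the low tumours. It was 1.89 higher (adjusted p = 0.0167). Iigp1 was not the only called gene of this kind outside the list. Gm4951 was 1.87 higher (adjusted p = 0.0139) and Phf11d 1.36 higher (adjusted p = 0.0323). Epsti1, Trim14 and Trim30d, picked after their values were seen, were 0.82, 0.88 and 0.82 higher (adjusted p = 0.0445, 0.031 and 0.0259). The Phf11d and Epsti1 calls held in 21 and 11 of the 30 fits with 1 tumour left out. All 29 proliferation genes were negative, with a median of -0.25, 6 unadjusted p-values under 0.05 and 0 called. Over all 18040 tested genes, 1316 positive and 1727 negative differences had an unadjusted p under 0.05, and 1.57% were called. Top2a, the topoisomerase of dividing cells that doxorubicin acts on, had -0.40 (adjusted p = 0.251) and Mki67 -0.11 (adjusted p = 0.787). With the proliferation list's score as a covariate 49 genes were higher and 42 lower, and the part of interferon and muscle genes in the other results was not tested.

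The called genes were unevenly spread over the chromosomes, a pattern noticed after seeing the data. Over all tested genes 0.776% were higher and 0.798% lower. Chromosome 4 held 44 of the 140 higher genes (31.4%), which is 4.07% of its 1080 tested genes, and 1 lower gene (0.0926%). They included Lao1, Plin2, B4galt1, Creb3 and Erp44 described above. The median difference of chromosome 4 genes was 0.09, and 79.1% of them were positive. Chromosome 10 held 26 of the 144 lower genes (18.1%), or 2.96% of its 879 tested genes, and 0 higher genes. Its relative level, defined below for chromosome 4, was -0.17, -0.15 and -0.11 in the high tumours mid102, mid135 and mid85. The median was -0.01 in the high and 0.02 in the low tumours, and the lowest low tumour was at -0.06. The level was above 0 in 5 of 15 high and 12 of 15 low tumours. The 26 lower genes of chromosome 10 included Akap12, a scaffold protein of kinase signalling, Myb, and Fyn, a Src-family kinase picked after its values were seen. Akap12 had -0.79 (adjusted p = 0.0401), a call that held in 17 of 30 fits with 1 tumour left out.

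**Figure D4:**
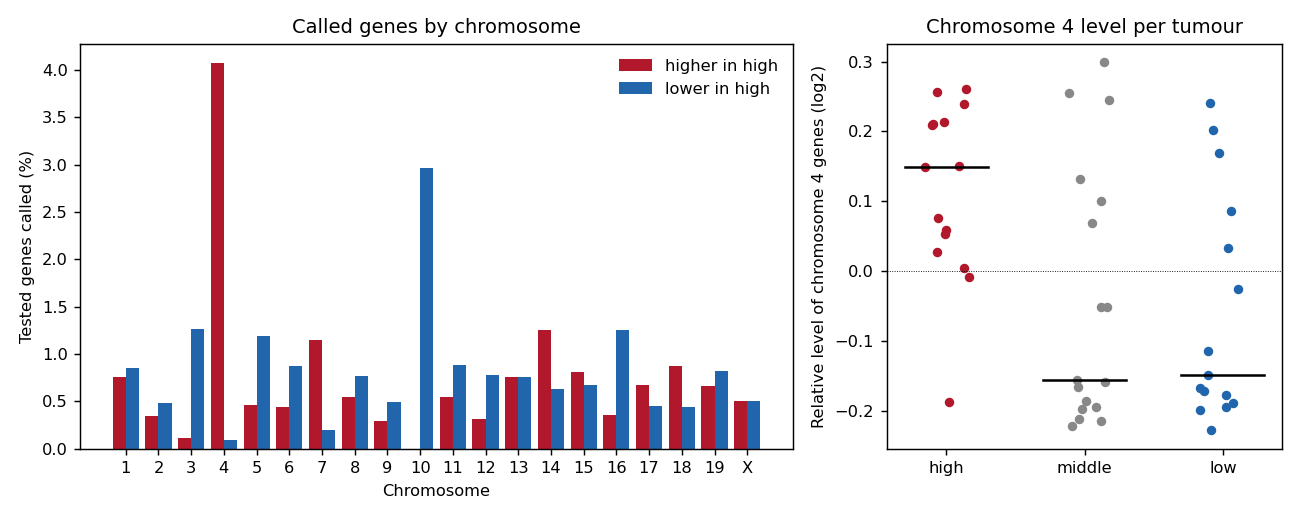
Left, percent of the tested genes on each chromosome (x axis) that were higher (red) or lower (blue) in high tumours; right, relative level of chromosome 4 genes in log2 (y axis) in each of the high, middle and low tumours, each point 1 tumour and the bar the median. Chromosome 4 has the tallest red bar, 4.07%, chromosome 10 the tallest blue bar, 2.96%, and chromosome 4 levels lie on both sides of 0 in each group.

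High tumours more often had raised levels of chromosome 4 genes as a whole, given here as a description. The relative level of a tumour, the median deviation of 817 brighter chromosome 4 genes from their mean over the 47 tumours less that of all brighter genes, was above 0 in 13 of 15 high, 6 of 17 middle and 5 of 15 low tumours. It was -0.19, 0.15 and 0.26 in the high and -0.23, -0.15 and 0.24 in the low tumours. The exceptions among high tumours were mid135 at -0.19 and mid131 at -0.01. The 5 low tumours above 0 were mid29, mid117, mid47, mid99 and mid114. With this level as a covariate 3 genes were higher, Csn1s2a at 3.32 (adjusted p = 0.00206), Jund at 0.60 (adjusted p = 0.000225) and Ogfrl1 at 1.51 (adjusted p = 0.018), and 0 were lower. All 140 and 144 genes kept their direction there, in the same 30 tumours that selected them. Lao1 had 2.62 (adjusted p = 0.0576) and Plin2 0.70 (adjusted p = 0.223) in that fit.

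The genes called depended on which milk genes made the score. Groups ranked by Csn2, Csn1s1 and Csn3 alone shared 13 high and 12 low tumours with the groups above, and 12 genes were higher and 0 lower. The 12 genes were Cd36, Cdh19, Cmtm6, Csn1s2a, Csn1s2b, Fkbp11, Gldc, Got1, Jund, Lao1, Selenos and Tppp2. Groups ranked by Lalba and Btn1a1 alone shared 10 high and 12 low tumours, and 778 genes were higher and 749 lower. The milk protein list had 3 of 18 tested genes called with the casein score, where 12 of all 18040 tested genes were higher and 0 lower. It had 6 of 18 with the Lalba and Btn1a1 score, where 778 of 18040 were higher and 749 lower. Under the latter, 6 of 19 tested interferon response genes were called.

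**Figure D5:**
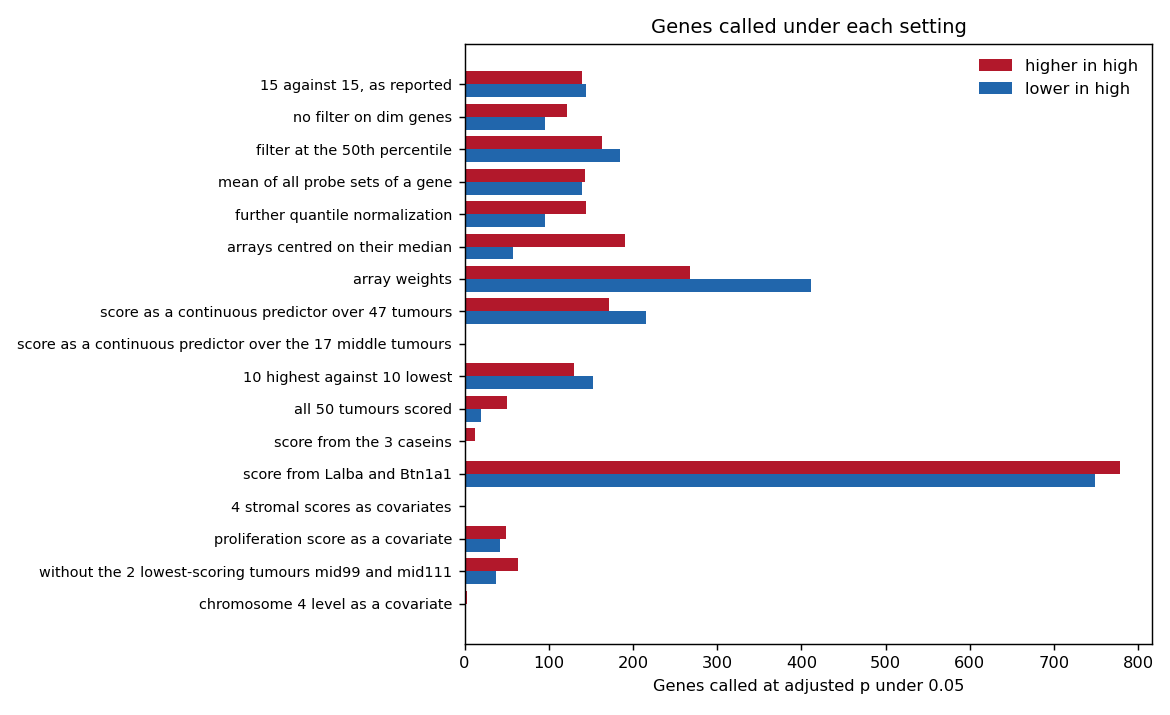
Number of genes called at an adjusted p under 0.05 (x axis) as higher (red) or lower (blue) in high tumours under the reported comparison and 16 other settings (y axis). Counts reach 778 and 749 when the score uses Lalba and Btn1a1, and lie at 3 or fewer with stromal or chromosome 4 covariates and in the middle tumours alone.

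The 17 middle tumours did not enter the comparison of high with low tumours, although their scores use the same 5 genes. Within them, 0 genes were called along the score as a continuous predictor (limma), and 1209 had an unadjusted p under 0.05. Of the 140 higher genes 121 had a positive slope, and of the 144 lower genes 112 had a negative slope. The median slope over all tested genes was -0.009. These signs are not independent of each other, since 44 of the 140 genes lie on chromosome 4. Its relative level ran from -0.22 to 0.30 in the middle tumours. Muc15 had a slope of 2.36 log2 per score unit (unadjusted p = 0.00253, adjusted p = 0.479) and Xbp1 of 1.74 (unadjusted p = 0.00478, adjusted p = 0.544). Wap had 0.04 (unadjusted p = 0.95), and Csn1s2b turned sign with -0.59 (adjusted p = 0.989). Over all 47 tumours, 172 genes rose and 216 fell with the score.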

How the data were processed

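RNA of 50 mammary tumour biopsies was measured on 1 array each. The authors summarised each probe set by RMA, per the labels, and deposited the result in log2 units. Its version was not given in the sources used here. RMA quantile-normalizes the arrays, which hides changes common to most genes, and levels near the ends of the scale are compressed. Of 34472 probe sets the platform annotation named 1 gene for 23521, which were used, several genes for 1814 and no gene for 9137. Each of 22180 genes was represented by its probe set with the highest mean (1082 had several), symbols were updated through a RefSeq table, and genes with a mean under 4.09, the 25th percentile, were left out.

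The 5 score genes were standardised over 47 tumours, and 15 high and 15 low tumours were compared over 18040 other genes with limma 3.58.1 (lmFit, eBayes with trend) in R 4.3.3, with two-sided p-values, Benjamini-Hochberg adjustment and calls under 0.05. The test was tried on simulated data in which genes varied independently and groups were set in advance. Here genes vary together and a score chose the groups, so that trial does not give the error rate of these results. Members and gene lists were chosen with earlier results of these data known. Named genes were drawn from the 15 largest called differences in each direction, not all of which are described. They also came from the milk, prolactin and ERBB lists, up to 3 called genes of each other list and the neighbours of the casein cluster. Other genes were picked after their values were seen. So were cell markers given for their level and the chromosome results. The fit with chromosome 4 level and the fit without mid99 and mid111 were also chosen then. The relative level of a chromosome is the median over its genes above the 50th percentile (5.27) of the tumour's deviation from the gene's mean over the 47 tumours, less the same median over all such genes. A motif of the STAT5 form was searched in RefSeq promoters. Python 3.11.15, numpy 2.4.6, pandas 2.3.3 and matplotlib 3.10.9 were used.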

Additional observations from a re-analysis of the deposited data

How the results depend on the processing

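Against 140 higher and 144 lower genes, the counts were 268 and 411 with array weights, 50 and 19 with all 50 tumours scored, 12 and 0 with the casein score, 778 and 749 with the Lalba and Btn1a1 score, 2 and 0 with stromal covariates, 49 and 42 with the proliferation covariate, 64 and 37 without mid99 and mid111, 3 and 0 with the chromosome 4 covariate and 0 and 0 in the 17 middle tumours. The fits without mid99 and mid111 and with chromosome 4 level were chosen after seeing the data. The lower count was 95 after further quantile normalization and 58 with centred arrays. No filter (122 and 96), a stricter filter (163 and 185), the mean of all probe sets (143 and 139), the 10 highest against the 10 lowest (130 and 153) and a continuous score (172 and 216) kept the counts within 1.5 times. The genes differed more than the counts, since 84 of the 140 and 61 of the 144 were called with 10 against 10, and 78 and 65 with the continuous score. All 140 and 144 genes kept their direction wherever they were tested, outside the 17 middle tumours. Those settings reuse most of the tumours that selected the genes, so a kept direction is little support. In the middle tumours 8 named genes reversed, at slopes of -0.59 (Csn1s2b), 0.087 (9830166K06Rik), -0.88 (Me1), -0.018 (Slc2a9), 0.67 (Cxcr4), -0.073 (Spcs2), -0.67 (Vdr) and -0.90 (Lef1). Leaving out 1 tumour gave 64 to 217 higher and 41 to 246 lower genes. The counts moved by over 1.5 times without mid111 (64 and 41), mid186 (70 and 45), mid128 (73 and 42), mid91 (76 and 48), mid130 (77 and 59), mid142 (85 and 63), mid7 (85 and 62), mid37 (87 and 75), mid36 (89 and 66), mid75 (89 and 64), mid105 (91 and 71), mid16 (92 and 62), mid101 (92 and 68) and mid135 (217 and 224). The lower count alone moved so without mid2, mid82 and mid33 (88 each), mid71 (92) and mid9 (246). The cause of these changes was not tested. No paired analysis was possible because the labels give 1 group of tumours and no replicate numbers that pair them. Levels near the top of the scale (Csn2, Csn3, Lalba) and near its bottom (Csn1s2b, Wap) are compressed, so their fold differences may be understated.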

Other observations

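Some genes with high levels in parts of the series were uneven within the groups. Dcpp1 and Dcpp2, genes of secreted demilune proteins of salivary glands, averaged 6.17 ± 0.76 and 5.70 ± 0.99 log2 (SD, n = 15) in the high tumours and 7.54 ± 1.97 and 7.17 ± 2.21 in the low tumours. Neither passed the test (limma adjusted p = 0.164 and 0.192). The secretoglobin gene Scgb2b27 averaged 11.24 ± 1.30 in the high and 10.05 ± 1.88 in the low tumours (adjusted p = 0.267), and Prol1 8.07 ± 2.08 and 6.28 ± 1.42 (adjusted p = 0.128). Of 11 tested genes of salivary-type glands 0 passed the test, beside 1.57% of all tested genes, and differences ran from -1.47 to 1.79.

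The 3 tumours set aside had milk protein list levels of 6.94, 7.99 and 8.44, within or just under the range of the scored tumours. Their fibroblast list levels were 9.43 to 10.38, against at most 8.85 in the high, 9.25 in the middle and 10.33 in the low tumours. Chromosome 7 was at -0.35 in mid111, a low tumour, and at 0.19 in mid186 and 0.17 in mid130, both high. Of its 1483 tested genes 17 were higher (1.15%) and 3 lower (0.202%), near the 0.776% and 0.798% of all tested genes. Differences were positive in 64.3% of them.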
